A study of Mus musculus with 3 samples.

Results

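Chemokines and chemokine receptors were examined in yolk sac cells sorted for VE-cadherin and CD45. The cells came from control mouse embryos and from embryos with an Etv2 transgene. The genes were taken by name, without use of their values: every array probe for a gene named Ccl, Cxcl, Cx3cl, Xcl, Ccr, Cxcr, Cx3cr or Xcr with a number, together with Pf4 and Ppbp, the older names of 2 CXC chemokines. The name Ccrn4l, which belongs to an unrelated gene, was left out. This gave 57 genes and 71 probes, of 36095 gene names and 55681 probes on the array. Of the 57 genes, 20 encode CC ligands, 17 encode CXC, CX3C or XC ligands, and 20 encode receptors.

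Chemokines are small secreted proteins, classed by the spacing of their first cysteines, that direct the migration of blood cells. They act through receptors that cross the membrane and couple to Gi proteins, and one receptor often binds several ligands. Many inflammatory ligands lie in gene clusters and are made by macrophages, whose first wave in the embryo forms in the yolk sac, while Cxcl12 and its receptor Cxcr4 act in the homing of blood progenitors.

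All cells were sorted as positive for both VE-cadherin, an endothelial junction protein, and CD45, a protein of blood cells, from yolk sacs of mice of mixed strain (B6/CBA and others), and were not cultured. The control group was 1 array of cells from control embryos at E10.5 (embryonic day), whose alleles the labels do not give. The Tie-2-Etv2 group was 2 arrays of cells from embryos in which a Tie-2 Cre transgene switches on an Etv2 transgene. Etv2 is an ETS transcription factor that specifies blood and endothelial precursors, and the Tie-2 promoter is active in endothelial cells and in blood cells derived from them, so the transgene was not restricted to the sorted population. The embryonic day of the Tie-2-Etv2 embryos is not given, nor is whether embryos were pooled or whether replicates 1 and 2 are of different litters. Any p-value here thus reflects no more than how far these particular samples lie apart, and part of that may be technical.

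Each array was read in 1 colour, and all 3 lay on 1 slide. Levels are given as normalised signal: the background-subtracted intensity of a probe, scaled on each array so that 1000 is the 75th percentile of those probes that cleared background on every array. Unscaled, that percentile was an intensity of 2073 for the control, 1199 for replicate 1 of Tie-2-Etv2 and 2092 for replicate 2. Between 43.5% and 48.5% of probes were well above background, and no spot was saturated. Etv2 signal was higher on the arrays labelled Tie-2-Etv2, at 35.0 in the control and at 752 and 326 in replicates 1 and 2. Whether it came from the transgene or from the endogenous gene was not tested. The sort markers were detected on every array. Ptprc, which encodes CD45, was at 472, 351 and 334, and Cdh5, which encodes VE-cadherin, was at 59.3 in the control against 1308 and 359. Signals of different probes are not comparable as amounts of RNA, so levels are compared only within a gene. The sums over marker lists given below are compared only within a list, and bright probes weigh most in them. Differences are log2 values, Tie-2-Etv2 minus control, and are followed by the standard error of the limma fit. With 1 control array, that error rests only on the gap between the 2 Tie-2-Etv2 arrays, pooled in part over all probes. Neither it nor any p-value holds a spread between controls.

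Chemokine and receptor signal was mostly lower in the Tie-2-Etv2 cells. To be tested, a gene's probe had to be well above background in the control or in both Tie-2-Etv2 replicates, and 33 of the 57 genes met this. Of these, 18 were at least 2-fold lower than the control on both Tie-2-Etv2 arrays, against 5.15% of the 19583 genes tested on the whole array. One gene, Cxcr2, was at least 2-fold higher on both, against 3.17% of all tested genes. The other 14 were within 2-fold on at least 1 array. Because a gene detected only in the control enters the test by being high there, the count was also taken over genes detected on all 3 arrays: 14 of 26 chemokine and receptor genes were lower and 1 was higher, against 3.44% and 2.91% of 17228 genes. The median log2 difference of the 33 genes was -1.50, and that of all tested genes was 0.07. Under normexp background correction 12 genes were lower on both arrays and the median was -0.40. That method was run with an offset of 50 added to every intensity, which shrinks the differences of faint probes. Lost 2-fold calls of faint genes under normexp therefore say little about those genes. Without the filter on dim probes, which brings in the undetected genes, the median over all 57 was -0.23.

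No gene passed the adjusted test. With 1 control array and 2 Tie-2-Etv2 arrays the limma fit has 1 residual degree of freedom, and after Benjamini-Hochberg adjustment 0% of the 19583 genes had an adjusted p under 0.05. The adjusted p of the 33 chemokine and receptor genes lay between 0.199 and 0.992 (limma). With normexp background correction 12 of them passed (614 of all genes), and without the filter on dim probes 8 did (440 of all genes). At an unadjusted p under 0.05, 18 of the 33 were lower and 1 was higher, against 6.36% and 4.41% of all tested genes. The smallest p that an exact permutation test could give with these 3 arrays is 0.333. In simulated data with these arrays' spread, changes of 2-fold, 4-fold and 16-fold (log2 changes of 1, 2 and 4) were called in 0% of cases, so the absence of calls says little about the size of the differences. Both Tie-2-Etv2 arrays are compared with the same control array, so an error of that array would appear in both differences alike.

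**Figure D1:**
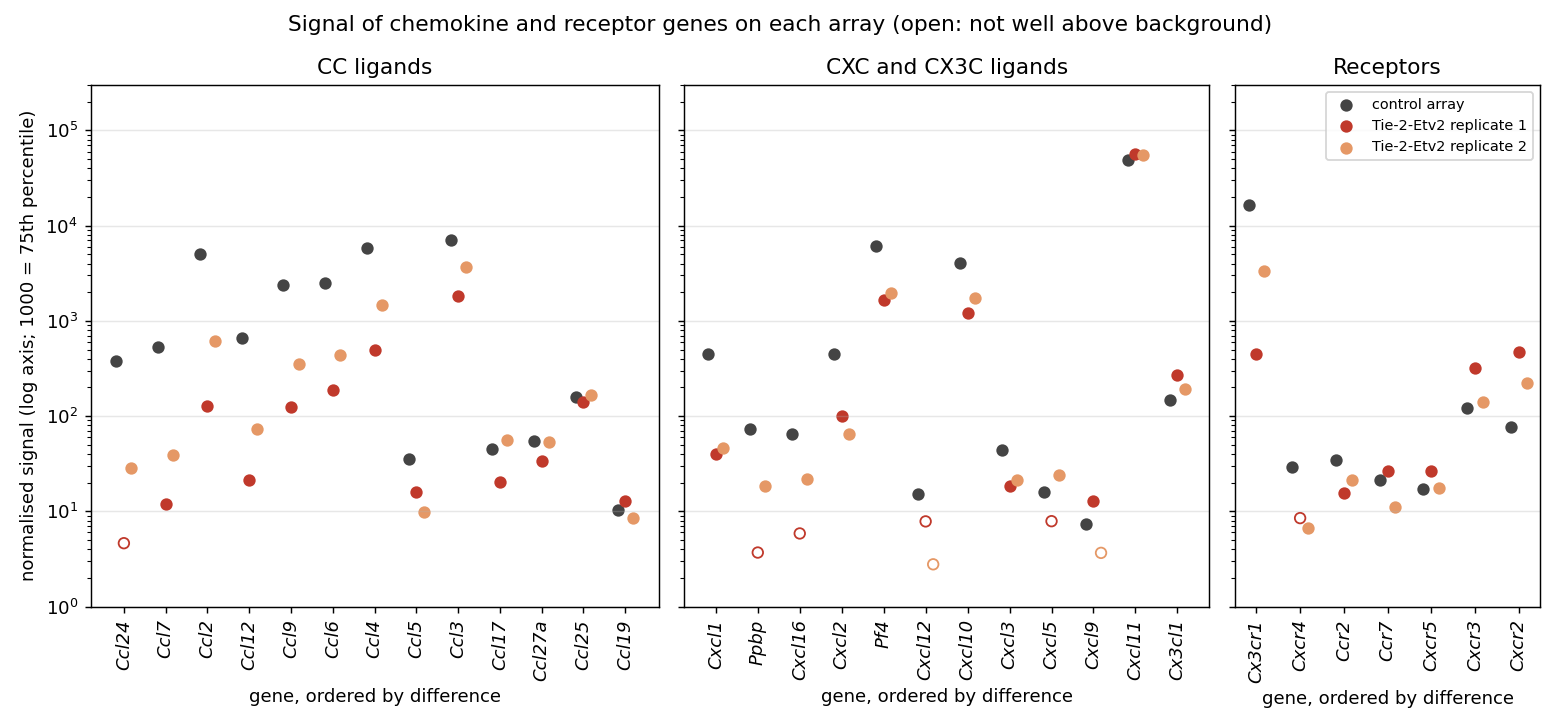
Normalised signal (log axis, where 1000 is the 75th percentile of detected probes) of the tested chemokine and receptor genes named in the text on the control array and on each Tie-2-Etv2 array, 1 point per array, with open points where the probe was not well above background. The control point lies above both Tie-2-Etv2 points for most CC ligands on the left of their panel, and below both for Cxcr2, Cxcr3, Cxcr5, Cx3cl1 and Cxcl11.

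Among the CC ligands, 8 of the 13 tested genes were lower on both Tie-2-Etv2 arrays and none was higher. The monocyte-attracting ligands of chromosome 11 and Ccl24 had the largest differences. Ccl2, the main ligand that draws monocytes through the receptor Ccr2, was at 4981 in the control and at 128 and 620 in Tie-2-Etv2 replicates 1 and 2. It was 39.0-fold and 8.03-fold lower, a mean difference of -4.15 ± 1.05 (adjusted p = 0.335, limma). Ccl2 was printed as 10 spots on each array, which gives the error within an array. The spot values here include 1 spot flagged as an outlier on the control and 1 on replicate 2, which the Ccl2 levels leave out. The control spots ranged from 4597 to 6208 around a median of 5041, the replicate 1 spots from 106.8 to 153 around 128, and the replicate 2 spots from 556 to 769 around 629. The SD of the log2 spot values was 0.114, 0.160 and 0.127, so the spots of the 3 arrays did not overlap, and the gap between both Tie-2-Etv2 arrays was also larger than the spread of spots.

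Ccl7, a further ligand of Ccr2, was at 535 in the control, 11.9 in replicate 1 and 38.9 in replicate 2. Its difference was -4.64 ± 0.81 (unadjusted p = 0.00495, adjusted p = 0.248, limma), or 45-fold and 13.7-fold lower. Ccl12, a mouse relative of Ccl2, was at 660 in the control, 21.2 in replicate 1 and 73.4 in replicate 2, a difference of -4.07 ± 0.85 (adjusted p = 0.277, limma). The 3 genes lie with Ccl11, Ccl8 and Ccl1 between positions 81850650 and 81990227 of chromosome 11 (probe positions, mm9). All 3 tested genes of this cluster were lower on both arrays, with a median of -4.15. Ccl11, Ccl8 and Ccl1 were not well above background on any array.

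A second cluster on chromosome 11, between probe positions 83339296 and 83478111 (mm9), holds Ccl5, Ccl9, Ccl6, Ccl3 and Ccl4. All 5 were tested and 4 were lower on both arrays. Ccl9, a ligand of the receptor Ccr1 that is made by myeloid cells, was at 2394 in the control and at 124 and 349 in the Tie-2-Etv2 arrays, a difference of -3.52 ± 0.72 (adjusted p = 0.276, limma). Ccl6, a close relative of Ccl9, was at 2479, 188 and 439, a difference of -3.11 ± 0.62 (adjusted p = 0.269, limma). Ccl4, an inflammatory ligand made by activated macrophages, was at 5821 in the control, 499 in replicate 1 and 1473 in replicate 2, which is 11.7-fold and 3.95-fold lower. Its neighbour Ccl3, which binds Ccr1, was at 7051, 1809 and 3695 and so was less than 2-fold lower in replicate 2 (-1.96 and -0.93, a mean of -1.45 ± 0.55, adjusted p = 0.501, limma). Ccl5, known from T cells and platelets, was faint at 35.4, 15.8 and 9.91. It was 2.24-fold and 3.58-fold lower, and it was no longer 2-fold lower on both arrays when background was corrected by the normexp method. Its unscaled intensities of 73.4, 18.9 and 20.7 lie near or below the offset of 50 used there. That loss thus says little about the gene.

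Ccl24, a ligand of Ccr3 that attracts eosinophils, lies outside these clusters. It was at 379 in the control and 28.6 in replicate 2, and in replicate 1 its probe was not well above background. It was 13.2-fold lower in replicate 2, and at least 43.1-fold lower in replicate 1 when its value there was raised to the lowest detected signal of that array. The fit gave -5.04 ± 1.19 from the values as measured (adjusted p = 0.312, limma). Normexp background correction gave smaller differences for the fainter of these ligands, -2.82 for Ccl24, -3.09 for Ccl7 and -3.02 for Ccl12, while Ccl2 was at -3.88.

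None of the remaining tested CC ligands was 2-fold lower on both arrays. Ccl17, a ligand of Ccr4, was at 44.8 in the control, 20.3 in replicate 1 and 55.6 in replicate 2, so the replicates lay on both sides of the control. Ccl25, the thymic and gut ligand of Ccr9, was at 158, 140 and 166. Ccl27a, a skin ligand of Ccr10, was at 54.3, 33.7 and 53.6. Ccl19, which guides lymphocytes and dendritic cells through Ccr7, was near the detection limit at 10.3, 13 and 8.57. A second detected probe gave a difference of 0.45 for Ccl25 and 0.56 for Ccl19, where the brighter probes gave -0.048 and 0.038. Ccl20, Ccl22, Ccl26 and Ccl28 were not well above background on any array.

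**Figure D2:**
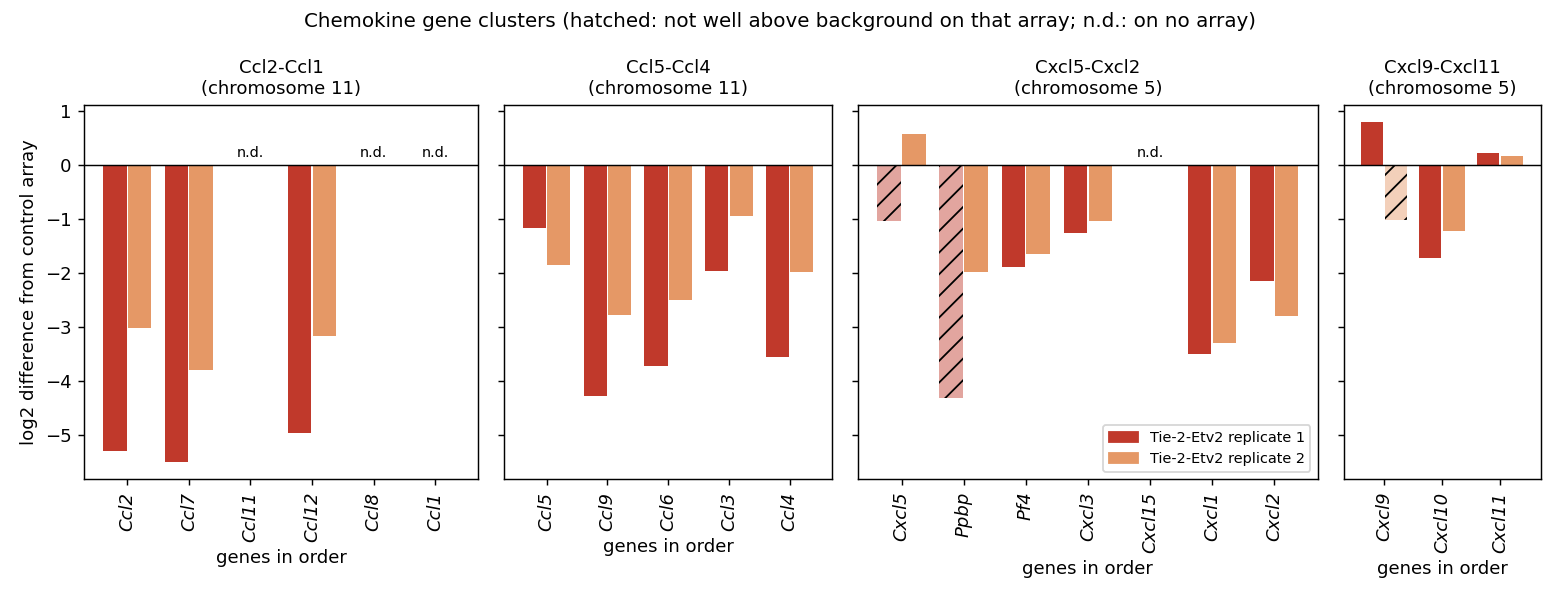
Log2 difference of each Tie-2-Etv2 array from the control array for the genes of 4 chemokine clusters, in chromosome order, with hatched bars where the probe was not well above background on that Tie-2-Etv2 array. In the Ccl2-Ccl1 and Ccl5-Ccl4 clusters of chromosome 11 all bars drawn point down (Ccl11, Ccl8 and Ccl1, not detected on any array, have none), whereas Cxcl11 and 1 array each for Cxcl5 and Cxcl9 on chromosome 5 point up.

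Among the CXC, CX3C and XC ligands, 7 of 12 tested genes were lower on both arrays and none was higher. The ligands that bind Cxcr2 and attract neutrophils lie on chromosome 5 beside the platelet chemokines, between probe positions 91190490 and 91334593 (mm9). Of the 7 genes there, 6 were tested and 5 were lower on both arrays, with a median of -2.11. Cxcl1 was at 454 in the control and at 40.3 and 46.7 in the Tie-2-Etv2 arrays. It was 11.3-fold and 9.73-fold lower, with replicates closer than in any other gene that differed by over 3 log2 units (-3.39 ± 0.33, unadjusted p = 0.000572, adjusted p = 0.199, limma), and normexp correction gave -2.59. Cxcl2 was at 445, 101 and 64.3, a difference of -2.47 ± 0.43 (adjusted p = 0.247, limma). Cxcl3 was at 44.0, 18.4 and 21.4, which is 2.39-fold and 2.06-fold lower; under normexp background correction it was not 2-fold lower on both arrays. Cxcl5 was at 16.1 in the control and 24.1 in replicate 2, and it was not well above background in replicate 1. Cxcl15 was not well above background on any array.

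The upstream sequence was available for 42 of the 57 genes and for 11 of the 18 lower ones, from RefSeq (build GRCm38.p6). The 250 bases before the annotated start were searched on both strands for GGG, any 2 bases, TT, any 1 base and CC. This pattern is of the type bound by NF-kB, a factor known for driving inflammatory chemokines. It occurred in 5 of the 11 lower genes, in 5 of the other 31 chemokine and receptor genes, and in 4.11% of all 32851 promoters in the reference. A chemokine or receptor gene counted if any of its promoters matched, whereas the reference shares, here and below, are of single promoters. The 2 are thus not in the same unit. The sequences of those 5 lower genes are shown, and 3 of these are the neighbouring Cxcl1, Cxcl2 and Cxcl3. Capitals mark the NF-kB-type pattern and, where present, CNGGAAG (the ETS type, both strands), TTTC, any 2 bases and TTTC (the interferon-response type, both strands) and TATAAA (forward strand only). Each sequence runs 5′ to 3′ along the gene and ends 1 base before its start.
Cxcl1 (chr5:90890995-90891244, + strand): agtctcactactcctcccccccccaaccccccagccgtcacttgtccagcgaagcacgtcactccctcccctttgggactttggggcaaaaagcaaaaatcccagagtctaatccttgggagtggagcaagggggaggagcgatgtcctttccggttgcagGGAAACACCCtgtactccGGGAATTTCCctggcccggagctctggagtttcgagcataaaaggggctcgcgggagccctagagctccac
Cxcl2 (chr5:90903649-90903898, + strand): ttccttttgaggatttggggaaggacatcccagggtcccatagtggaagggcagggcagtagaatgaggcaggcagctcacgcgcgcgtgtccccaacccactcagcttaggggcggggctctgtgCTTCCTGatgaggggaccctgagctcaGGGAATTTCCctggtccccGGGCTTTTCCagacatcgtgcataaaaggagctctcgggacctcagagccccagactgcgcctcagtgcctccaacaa
Cxcl3 (chr5:90785851-90786100, + strand): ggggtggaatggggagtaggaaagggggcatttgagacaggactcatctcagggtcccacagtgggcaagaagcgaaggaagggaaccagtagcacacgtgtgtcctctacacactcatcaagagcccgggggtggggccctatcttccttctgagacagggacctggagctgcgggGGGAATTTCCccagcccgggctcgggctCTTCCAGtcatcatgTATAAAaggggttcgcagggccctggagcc
Cxcl10 (chr5:92348890-92349139, - strand): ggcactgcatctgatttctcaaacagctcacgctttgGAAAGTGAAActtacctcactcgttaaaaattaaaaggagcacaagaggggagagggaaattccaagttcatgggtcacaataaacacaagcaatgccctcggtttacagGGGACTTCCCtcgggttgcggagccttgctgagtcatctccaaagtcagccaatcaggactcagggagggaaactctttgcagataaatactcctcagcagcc
Ccl9 (chr11:83578637-83578886, - strand): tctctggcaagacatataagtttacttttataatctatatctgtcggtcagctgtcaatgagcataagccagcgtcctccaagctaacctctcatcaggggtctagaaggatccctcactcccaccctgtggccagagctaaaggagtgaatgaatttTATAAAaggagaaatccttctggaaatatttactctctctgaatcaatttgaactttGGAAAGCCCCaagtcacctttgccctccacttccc

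In Cxcl1, Cxcl2 and Cxcl3 an NF-kB-type match on the gene's own strand began 71, 97 and 73 bases before the start. Cxcl1 held a further match on the opposite strand at 89 bases, and Cxcl2 a further one on the same strand at 78. The match in Cxcl10 began at 103 bases, and that in Ccl9, on the opposite strand, at 35. ETS factors include Etv2, and the letters CNGGAAG occurred in 4 of the 11 lower genes (Ccl12, Ccl6, Cxcl2 and Cxcl3), in 11 of the 31 others, and in 26.6% of all promoters. The interferon-response pattern occurred in Cxcl10 alone of the 11, in 2 of the 31 others and in 2.98% of all promoters. TATAAA occurred in 5 of the 11, in 7 of the 31 and in 7.59% of all promoters. A match describes the letters only. Binding was not measured, and the genes of 1 cluster share ancestry and hence sequence.

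The platelet chemokines of the same cluster were lower too. Pf4, platelet factor 4, which megakaryocytes store in granules and macrophages also express, was at 6160 in the control, 1671 in replicate 1 and 1978 in replicate 2. It was 3.69-fold and 3.11-fold lower, with replicates that differed little (-1.76 ± 0.34, adjusted p = 0.262, limma). Ppbp, the precursor of a platelet-released Cxcr2 ligand, was at 73.5 in the control, 18.6 in replicate 2 and not well above background in replicate 1. It was 3.95-fold lower in replicate 2 and at least 8.36-fold lower in replicate 1, but not 2-fold lower on both arrays under normexp correction. Other megakaryocyte genes did not share this direction: of 11 markers, all tested, 5 were higher on both arrays, among them Itga2b, Gp9, Clec1b and Mmrn1, and only Vwf was lower.

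The interferon-inducible ligands of Cxcr3 lie in a separate cluster on chromosome 5, between probe positions 92752796 and 92788626 (mm9), and differed among themselves. Cxcl10 was at 4012 in the control and at 1215 and 1717 in the Tie-2-Etv2 arrays, a difference of -1.47 ± 0.39 (adjusted p = 0.348, limma). A fainter second probe for Cxcl10 was well above background in the control only, at 28.3, which makes it at least 3.22-fold lower in replicate 1 and at least 5.28-fold lower in replicate 2. Cxcl9 was near the detection limit, at 7.38 in the control and 12.9 in replicate 1, and not well above background in replicate 2. Cxcl11 was at 48858, 56988 and 55322, a difference of 0.20 ± 0.32 (adjusted p = 0.935, limma), and a second probe was at 593, 749 and 781.

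The probe behind the brighter Cxcl11 value shares a run of 20 bases with probes of 7 other genes, so its level may not be that of Cxcl11 alone. The shared stretch is shown because it bears on whether Cxcl11 was expressed; capitals mark 20 bases that 6 of those other probes also hold, on either strand.
Cxcl11 brighter probe, bases 10 to 39: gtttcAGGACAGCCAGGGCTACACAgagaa
All 7 of those probes were well above background in the control, at 1560 to 109212 with a median of 40571. The letters resemble the B1 repeat, a short interspersed element common in mouse transcripts. The fainter Cxcl11 probe shared no such run with another gene's probe. The part of the repeat in the signal was not tested.

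Of the ligands outside the clusters, Cxcl16, a membrane-bound scavenger and ligand of Cxcr6, was at 64.3 in the control, 21.6 in replicate 2 and not well above background in replicate 1. It was at least 7.31-fold lower in replicate 1 and 2.97-fold lower in replicate 2, though not 2-fold lower on both arrays under normexp correction. Cxcl12, the homing ligand of Cxcr4 made chiefly by stromal cells, was at 15.3 in the control and not well above background on either Tie-2-Etv2 array, which makes it at least 2.23-fold lower on average (adjusted p = 0.553, limma). Its second probe was not well above background on any array. Cx3cl1, a membrane-tethered ligand of endothelial cells, was at 146 in the control, 270.1 in replicate 1 and 193 in replicate 2. Its difference of 0.64 ± 0.38 was under 2-fold on both arrays (adjusted p = 0.713, limma). Cxcl13, Cxcl14, Cxcl17 and Xcl1 were not well above background on any array.

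Among the receptors, 8 of 20 genes were tested, 3 were lower on both arrays and 1 was higher. Cx3cr1, the fractalkine receptor that marks macrophage precursors and microglia, was at 16379 in the control, 444 in replicate 1 and 3365 in replicate 2. It was 36.9-fold and 4.87-fold lower, a wide gap between replicates (-3.74 ± 1.32, adjusted p = 0.474, limma). A second Cx3cr1 probe, at 2721, 83.1 and 482, gave -3.77. The brighter probe shares 20 bases with 1 probe of an unnamed transcript, and the second probe shares none. Cxcr4 was at 29.1 in the control, not well above background in replicate 1, and 6.75 in replicate 2, or at least 3.31-fold and 4.31-fold lower. Under normexp correction Cxcr4 was not 2-fold lower on both arrays.

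Cxcr2, the receptor through which Cxcl1, Cxcl2, Cxcl3, Cxcl5 and Ppbp draw neutrophils, was the exception. It was at 76.7 in the control, 471 in replicate 1 and 221 in replicate 2, a difference of 2.07 ± 0.57 (unadjusted p = 0.0232, adjusted p = 0.362, limma). Both Tie-2-Etv2 values lay above the control, by 2.62 and 1.53 on the log2 scale. Of the monocyte and granulocyte markers, 5 of 8 tested genes were also higher on both arrays and none was lower. S100a8, a calcium-binding protein of neutrophils and monocytes, was at 106 in the control and at 4187 and 2191.

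The other tested receptors lay within 2-fold of the control on at least 1 array. Ccr2, the monocyte receptor of Ccl2, was at 34.5, 15.6 and 21.5 (-0.91 ± 0.38, adjusted p = 0.540, limma), and normexp correction gave -0.20. Cxcr3 was at 122, 320 and 142, so that only replicate 1 was over 2-fold higher. Cxcr5, a chemokine receptor of B cells, was at 17.1, 26.4 and 17.5. Ccr7 was at 21.4, 26.8 and 11, with the replicates on both sides of the control. Ccr8 was well above background in replicate 2 only, at 7.62, and so was not tested. Ccr1, Ccr1l1, Ccr3, Ccr4, Ccr6, Ccr9, Ccr10, Cxcr1, Cxcr6, Cxcr7 (now Ackr3) and Xcr1 were not well above background on any array. A stretch of chromosome 9 between probe positions 119957811 and 124041306 (mm9) holds 10 of the receptor genes. Of these, 3 were tested and 2 were lower on both arrays, Cx3cr1 among them. The stretch is not 1 compact cluster: Cx3cr1 and Ccr8 lie at one end, and the next probe, for Ccr9, is at 123690334.

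Read as ligand and receptor pairs, both sides were not always lower. Cxcl12 and Cxcr4 were both below their control levels, though for the faint Cxcl12 the bound in replicate 1 was only 1.74-fold. Ccl2, Ccl7 and Ccl12 were over 8-fold lower on each array. Their receptor Ccr2 was also below its control level on both arrays, but less than 2-fold lower in replicate 2. Cxcl1, Cxcl2, Cxcl3 and Ppbp were lower while Cxcr2 was higher. Cx3cr1 was lower and Cx3cl1 was above its control level on both arrays, by less than 2-fold. Ccl6, Ccl9, Ccl24 and Cxcl16 were lower while Ccr1, Ccr3 and Cxcr6, which bind them, were not well above background, so no value can be given for those receptors.

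The lower genes were mostly lower by more in replicate 1. This held for 14 of the 18, and over all tested genes for 677 of the 1009 that were lower, with values not well above background raised to the lowest detected signal. Ccl5 and Cxcl2 were among those lower by more in replicate 2. For Cxcr4 the bound in replicate 1 leaves the order of the replicates undetermined. Replicates 1 and 2 differed from the control by -5.21 and -2.28 for Cx3cr1, but by -3.49 and -3.28 for Cxcl1. Ccl24, not well above background in replicate 1, was at least 43.1-fold lower there against 13.2-fold in replicate 2.

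**Figure D3:**
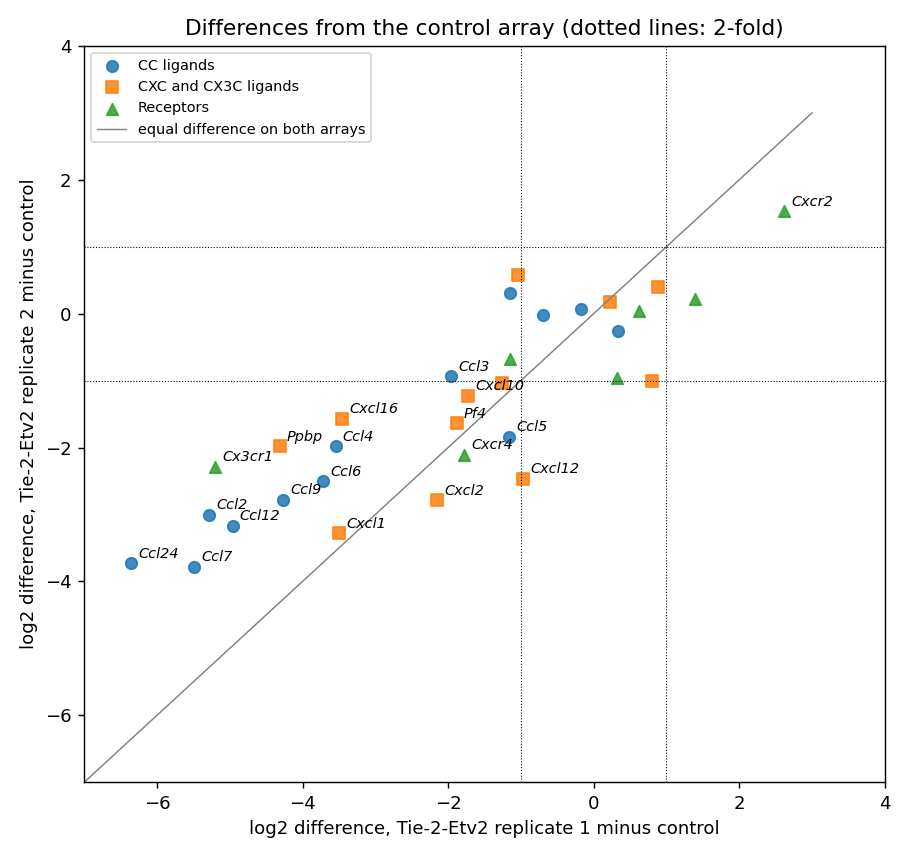
Log2 difference from the control array in Tie-2-Etv2 replicate 1 (x axis) and replicate 2 (y axis) for the tested genes named in the text, by role, with dotted lines at 2-fold and a line of equal difference; both axes share the control array, and values not well above background are plotted as measured. Most ligands at the lower left lie above the line, being lower by more in replicate 1, and Cxcr2 stands alone at the upper right.

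Other genes of the chemokine system were taken from lists chosen by function. Of 8 atypical receptors and ligand scavengers, 6 were tested. Stab1, a scavenger receptor of macrophages and sinusoidal endothelium, was lower on both arrays at 6282, 660 and 762 (adjusted p = 0.199, limma). Ackr1, an endothelial and erythroid receptor that binds chemokines without signalling, was higher, being not well above background in the control and at 78.0 and 43.5 in the Tie-2-Etv2 arrays. Ackr2 and Ackr4 were not well above background on any array. Of 54 genes for signalling inside the cell downstream of the receptors, 51 were tested, 46 lay within 2-fold on at least 1 array and the median difference was -0.02. On both arrays 3 of the 51 were lower and 2 were higher, near the 5.15% and 3.17% of all tested genes. Rgs10, which shortens G protein signalling, was lower at 3607, 1427 and 1506, and Rap1a, a GTPase of integrin activation, was detected in the control only. Fgr, a myeloid Src-family kinase, was higher at 13.4, 170 and 112, along with Tiam1.

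Of 37 NF-kB and inflammatory genes, 31 were tested, 7 were lower on both arrays and none was higher, with a median of -0.36. The lower genes were Il1a, Cd83, Zfp36, Tlr2, Tlr4, Cd14 and Csf1, of which Cd14 is also among the macrophage markers used here. Cd83, an activation marker of antigen-presenting cells, was at 6928 in the control and at 164 and 545. Rela, which encodes a part of NF-kB itself, and Nfkbia, which encodes its feedback inhibitor, were closer to the control. Rela was at 5209, 6304 and 4876, and Nfkbia was at 12164, 17009 and 11840. Rel, a further NF-kB gene, was not well above background on any array. Tnf was at 2628, 1339 and 1195, just within 2-fold in replicate 1.

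Cell type markers differed alongside these genes. In a sample of many cells, fewer cells of a type and less RNA per cell cannot be told apart. All 13 tested macrophage markers of the 14 listed were lower on both arrays, and their summed normalised signal over the list was 60179 in the control, 4724 in replicate 1 and 14209 in replicate 2. Cd163 was not tested, being well above background in replicate 1 only. Adgre1 (the F4/80 antigen of macrophages) was at 1489, 21.2 and 76.5, and Csf1r, the receptor for macrophage growth factor, was at 31341, 3906 and 10388. Csf1r alone thus made up most of the sum on each array. The median log2 difference of the tested macrophage markers was -4.30. The summed macrophage signal was highest in the control and lowest in replicate 1, as were Ccl2, Ccl7, Ccl12, Ccl9, Ccl6, Ccl4, Ccl24, Cx3cr1 and others. This order was not particular to macrophages: the visceral endoderm, erythroid and lymphoid sums given below had it too, though no tested lymphoid marker was 2-fold lower on both arrays. Ccl5 and Cxcl2, in contrast, were lowest in replicate 2. The part of macrophages in the chemokine differences was not tested.

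Endothelial markers were higher in 9 of 12 genes and lower in none, with sums of 10277, 51432 and 25154. The monocyte and granulocyte markers, 9 of 11 of which were on the array, summed to 19661, 50810 and 52571; Ngp was not well above background. The megakaryocyte markers summed to 2314, 13099 and 7991. Markers of cells that the sort should exclude were also detected. Of the visceral endoderm markers, 9 of 10 were lower on both arrays, with sums of 34234, 1806 and 14573. The erythroid markers summed to 43396, 8379 and 12121, with 5 of 8 tested genes lower. The mesenchyme markers summed to 1394, 180 and 121, with 5 of 8 tested genes lower, among them Col1a1 and Dcn. The lymphoid markers summed to 2804, 1171 and 1720, but none of the 4 tested genes was 2-fold lower or higher on both arrays. Cd3g, Ms4a1 and Ncr1 were not well above background on any array. The part of these cells in the lower chemokine signal was not tested, and a difference in sort purity cannot be told apart from the genotype with 1 control array.

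**Figure D4:**
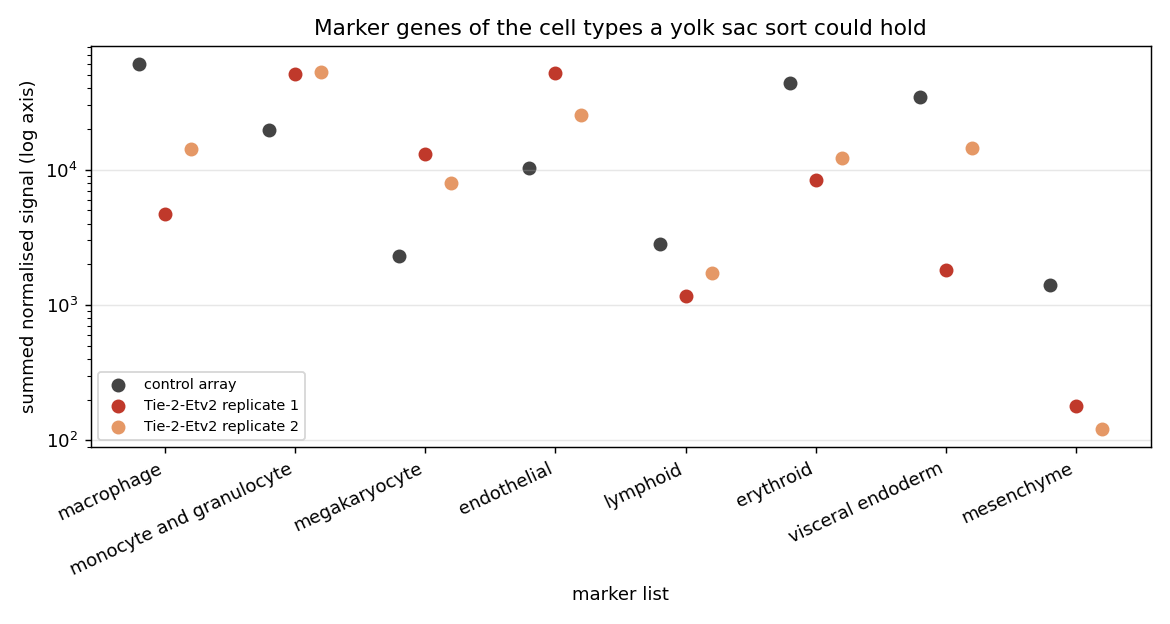
Summed normalised signal (log axis) of the marker genes of 8 cell types on the control array and on each Tie-2-Etv2 array, 1 point per array. The macrophage, erythroid, visceral endoderm, mesenchyme and lymphoid sums were highest in the control, and the endothelial, megakaryocyte and monocyte and granulocyte sums were lowest there.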

How the data were processed

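RNA of sorted cells was labelled with Cy3 and hybridised in 1 colour. The authors extracted the spots with Agilent Feature Extraction 10.7, per the submitters' processing notes, and deposited for each spot a processed intensity and flags for signal well above background. A deposited value table holds log2 values; set against the scanner files it equalled log2 intensity, up to 1 constant per array, with each probe centred on its median over the arrays, and it served as an alternative. Intensities were taken to log2 and scaled by the 75th percentile, outlier and control spots were left out, spots of a probe were averaged, and limma 3.58.1 in R 4.3.3 fitted 26217 probes with Benjamini-Hochberg adjustment, as tested on simulated data. Where a gene had several tested probes, the one whose 2 group means averaged highest stood for it. For counts of 2-fold differences, values not well above background were raised to the lowest detected value of the array (6.66, 8.79 and 5.36 normalised). All 71 probes of the chemokine and receptor genes matched a RefSeq name, 66 by accession and 5 by symbol. Of the tested chemokine and receptor genes 1 is counted but not reported here by name, the rest were named; of other lists, counts and a few examples. The genes and all lists were chosen with earlier results of these data known.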

Additional observations from a re-analysis of the deposited data

How the results depend on the processing

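The count of 18 lower genes was 12 to 21 over all alternatives, and all 18 were shared where dim values were kept as measured, no filter was applied, probes were averaged, arrays were quantile normalised or scaled over all probes, or the deposited table was used. Under normexp 12 chemokine and receptor genes passed an adjusted p of 0.05 (11 lower, and Cxcr2), with 614 of all genes, and without the filter on dim probes 8 passed, all lower, with 440 of all genes; the prior degrees of freedom in limma, 2.93 in the reported fit, were infinite and 20.1. The median difference was -0.40 with normexp, -0.23 without the filter and -1.72 with probes averaged. Leaving out 1 Tie-2-Etv2 replicate moved the median between -1.72 and -1.57, the lower count between 19 and 21 and the higher count between 1 and 2, with no test in either case. Ccl3, Ccl17 and Ccr2 joined the lower genes without replicate 2, as did Cxcl12 without replicate 1. Over all genes, 1009 lower and 620 higher became 484 and 310 with normexp, 1669 and 1672 without replicate 2, and 593 lower for genes detected on all 3 arrays. Differences under the 2-fold line changed sign for Ccl19 (-0.052 with quantile normalisation), for Ccl17 (0.067), Ccl25 (0.021), Ccr7 (0.17), Cxcl5 (0.26) and Cxcl9 (0.26) with normexp, and for Ccl25 (0.20) with probes averaged. With 1 replicate left out the range was -1.14 to 0.31 for Ccl17, -0.26 to 0.34 for Ccl19, -0.17 to 0.073 for Ccl25, -1.03 to 0.58 for Cxcl5, -0.96 to 0.32 for Ccr7 and -1.01 to 0.81 for Cxcl9. Faint signal limits Ccl24, Cxcl16, Cxcr4 and Ppbp, the lower genes not detected on all 3 arrays. The cause of the other changes was not tested. No paired analysis was possible because the control group has 1 array with no replicate number.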
